A study of Homo sapiens with 2 samples.

Results

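The mucous secretory program was followed here through 10 genes, chosen by symbol from 58302 genes listed for each library. They were the gel-forming mucins MUC5AC and MUC5B, the membrane-bound mucins MUC1, MUC13, MUC16 and MUC20, the transcription factor SPDEF, the protein disulfide isomerase AGR2, and the trefoil peptides TFF1 and TFF3. Their RNA was counted by RNA-seq in A549, an established human lung adenocarcinoma cell line, grown in F12K medium with serum. One library came from cells with the genotype label PGC-1alpha overexpression, and the other from control cells of the overexpression experiment. PGC-1α, encoded by PPARGC1A, is a transcriptional coactivator known for driving mitochondrial genes. The promoter, vector and duration of overexpression are not given in the labels, and neither is any statement of clones or pools. The title of the series names MUC1 and the transcription factor FOXM1 beside PGC-1α.

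Mucins are large glycoproteins whose serine- and threonine-rich domains carry dense O-linked sugars. The gel-forming kind is packed into granules and secreted to build the mucus layer of the airway, while the membrane-bound kind stays on the apical cell surface and can signal through a cytoplasmic tail. SPDEF is an ETS-family factor known from mouse airway and gut for driving goblet cell differentiation. AGR2 sits in the endoplasmic reticulum, where in mouse gut it is needed for mucin production, and trefoil peptides are small cysteine-rich proteins secreted together with mucins. Lung adenocarcinomas may express parts of this program.

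Library totals were 24334768 counts with PGC-1α overexpression and 27125084 in the control. With 1 library per group there is no replicate check and no test. Ratios describe these libraries only, and their 95% intervals are exact (Clopper-Pearson) and cover counting error alone. PPARGC1A had 4654 counts in the PGC-1α library and 5 in the control, so its level went with the labels. The counts do not tell an introduced copy from the cell's own gene. FOXM1 had 2457 counts in the PGC-1α library and 2625 in the control, a log2 ratio of 0.08 (-0.003 to 0.16). The keratin genes KRT7, KRT8 and KRT18 had between 31244 and 105496 counts in either library. Markers of other cell types differed in level. The 8 alveolar type 2 markers summed to 37.5 CPM in the PGC-1α library and 36.0 CPM in the control, nearly all of it ABCA3. Basal markers (3 genes) summed to 2.69 CPM in the PGC-1α library and 2.97 CPM in the control, and ciliated markers (4 genes) to 7.89 CPM in the PGC-1α library and 4.22 CPM in the control. The summed level of 3 club cell markers was 0.165 CPM (counts scaled to library size) in the PGC-1α library and 0.257 CPM in the control. Fibroblast markers (6 genes) summed to 15.9 CPM in the PGC-1α library and 14.9 CPM in the control, mostly THY1. Immune markers (6 genes) summed to 3.64 CPM in the PGC-1α library and 6.20 CPM in the control, mostly CD14. Endothelial markers (5 genes) summed to 8.59 CPM in the PGC-1α library and 9.39 CPM in the control, mostly ESAM. At 0 in both libraries were NKX2-1 and SFTPA1 of the alveolar type 2 list, SCGB1A1 and SCGB3A2 of the club cell list, CD3E of the immune list and CDH5 and KDR of the endothelial list.

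In the PGC-1α library the secreted, gel-forming side of the program was lower, TFF1 was higher, and none of the membrane-bound mucins was called. In bulk RNA, fewer cells of a kind and less RNA per cell cannot be told apart. A gene was treated as measured when its mean over the libraries reached 1 CPM, and it was called when it differed at least 1.5-fold with an interval that left out a ratio of 1. Over all 10 genes, 4 were called lower (SPDEF, MUC5AC, MUC5B and AGR2), 1 higher (TFF1), 2 were measured without a call (MUC1 and MUC13) and 3 were not measured (MUC16, MUC20 and TFF3). Among all 14154 measured genes, 3.93% were called lower and 5.29% higher by this rule. All 4 lower genes were also past 2-fold, a size that 1.16% of measured genes reached downward and 1.75% upward, and TFF1 was past it upward. Called genes were more frequent among less abundant genes: at a mean of 1 to 10 CPM, where 5 of the 7 measured members lie, 8.38% were called lower and 10.5% higher. Of the 4523 genes in that range, 136 were at least 2-fold lower and 174 at least 2-fold higher. TFF1 passed the filter only through the library in which it was high, while the other 6 measured members exceeded 1 CPM in both. The plot of levels shows every value.

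**Figure D1:**
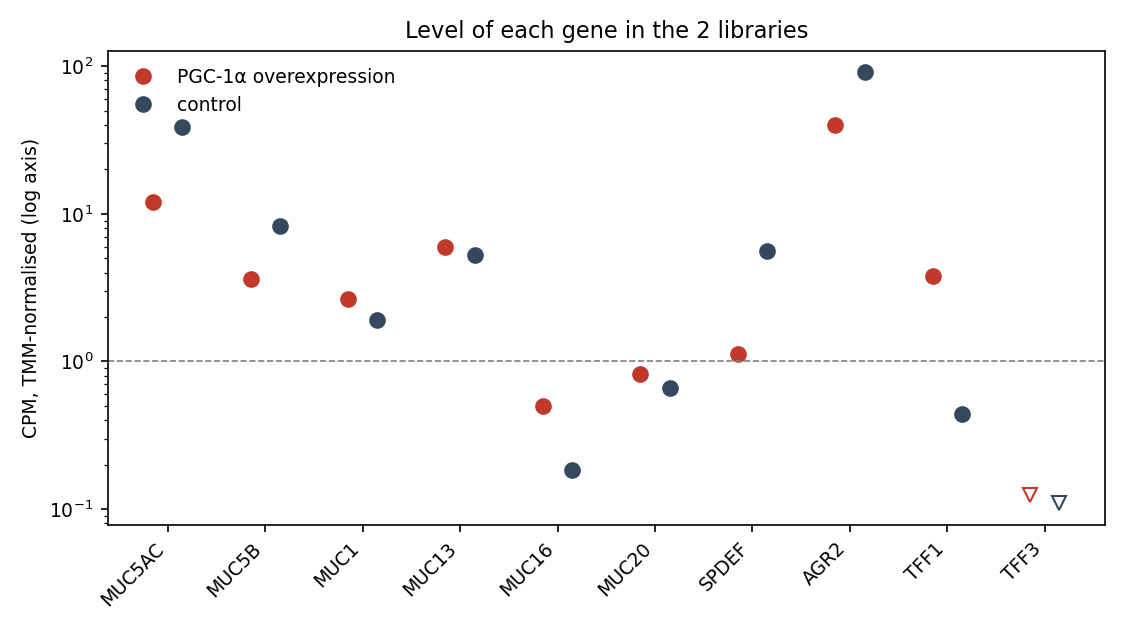
Level of each of the 10 genes in CPM (log axis) in the PGC-1α overexpression library (red) and the control library (dark), 1 point per library. Open triangles for TFF3 mark the limit that a count of 0 allows, and the dashed line is 1 CPM. MUC5AC, MUC5B, SPDEF and AGR2 lie lower and TFF1 higher in the PGC-1α library.

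Some of these genes are hard to count, because mucin coding sequence is built from tandem repeats. A repeat unit is shown for the 4 members with over 10% of their sequence repeated. It comes from their longest protein-coding transcript in GENCODE 29, with no base singled out. Among lengths of 12 to 120 bases, the length with the most positions where a stretch is followed directly by its exact copy was taken. These positions numbered 446 in MUC1, 41 in MUC5AC, 9 in MUC5B and 422 in MUC20. Printed is the most frequent unit of that length, counted anywhere in the transcript, so copies need not lie side by side. MUC1 carries 19 exact copies of a unit of 60 bases, MUC5AC 16 copies of a unit of 24 bases, MUC5B 13 copies of a unit of 15 bases and MUC20 10 copies of a unit of 57 bases.
MUC1 repeat unit: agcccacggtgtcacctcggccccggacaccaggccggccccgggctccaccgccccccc
MUC5AC repeat unit: ctcctacaaccagcacaacctctg
MUC5B repeat unit: acctggatcctcaca
MUC20 repeat unit: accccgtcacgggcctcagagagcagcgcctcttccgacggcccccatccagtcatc
Of all stretches of 50 bases in these transcripts, 42.4% recurred within the MUC1 transcript and 21.4% within that of MUC5AC. The shares were 29.2% for MUC5B and 19.7% for MUC20. The printed units of MUC5AC and MUC5B are shorter than such a stretch. MUC16, at 1.07%, had few exact repeats, and MUC13, SPDEF, AGR2, TFF1 and TFF3 had none. Reads from a repeat map to several places of the same gene, and how the authors' counting treated such reads is not given in the sources used here. Sequence shared with other genes was 0.379% of the MUC5AC transcript and 2.30% of the MUC5B transcript, but 69.1% of that of MUC20, which therefore stays uncertain.

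The gel-forming mucins lie next to each other on chromosome 11, and both were lower. MUC5AC (ENSG00000215182, chromosome 11, 1157953 to 1201138, plus strand, 49 exons in its longest coding transcript), the main inducible mucin of airway goblet cells, had 290 counts (11.98 CPM) in the PGC-1α library and 1054 counts (38.65 CPM) in the control. Its log2 ratio was -1.69 (-1.88 to -1.50), or 3.22-fold lower. It ranked 33 from the lowest ratio among the 14154 measured genes. MUC5B (ENSG00000117983, chromosome 11, 1223066 to 1262172, plus strand, 49 exons), the mucin that mice need for airway clearance, had 88 counts (3.64 CPM) in the PGC-1α library and 227 counts (8.32 CPM) in the control. This gave a log2 ratio of -1.19 (-1.57 to -0.83), or 2.28-fold lower, at rank 101. MUC5AC differed more than MUC5B, with a difference of log2 ratios of -0.49 (-0.91 to -0.07). As a share of the counts of both, MUC5AC took 76.7% in the PGC-1α library (72.1% to 80.9%, exact binomial interval) and 82.3% in the control (80.1% to 84.3%). Summed, the pair had 378 counts in the PGC-1α library and 1281 in the control, a log2 ratio of -1.59 (-1.76 to -1.42).

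Around this pair no other gene was called. Of 10 genes that start within 250 kb of the MUC5AC start and have at least 10 counts in all, MUC5AC and MUC5B were the only ones called. The gel-forming mucin genes MUC2 and MUC6, which start 83.1 and 121.2 kb before MUC5AC, had too few counts to show a difference: MUC2 had 7 in the PGC-1α library and 6 in the control, and MUC6 had 12 in the PGC-1α library and 7 in the control. TOLLIP, an adaptor of Toll-like receptor signalling whose start lies 151.7 kb after that of MUC5AC, had 1423 counts in the PGC-1α library and 1644 in the control, a log2 ratio of -0.04 (-0.14 to 0.07). On the far side, AP2A2 and CHID1 stood at log2 ratios of -0.19 and 0.14, and BRSK2 beyond TOLLIP at -0.16. An antisense RNA gene, AC061979.1, and the microRNA gene MIR6744 overlap MUC5B and had 0 counts in both libraries. The plot of this region gives each gene with its interval.

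**Figure D2:**
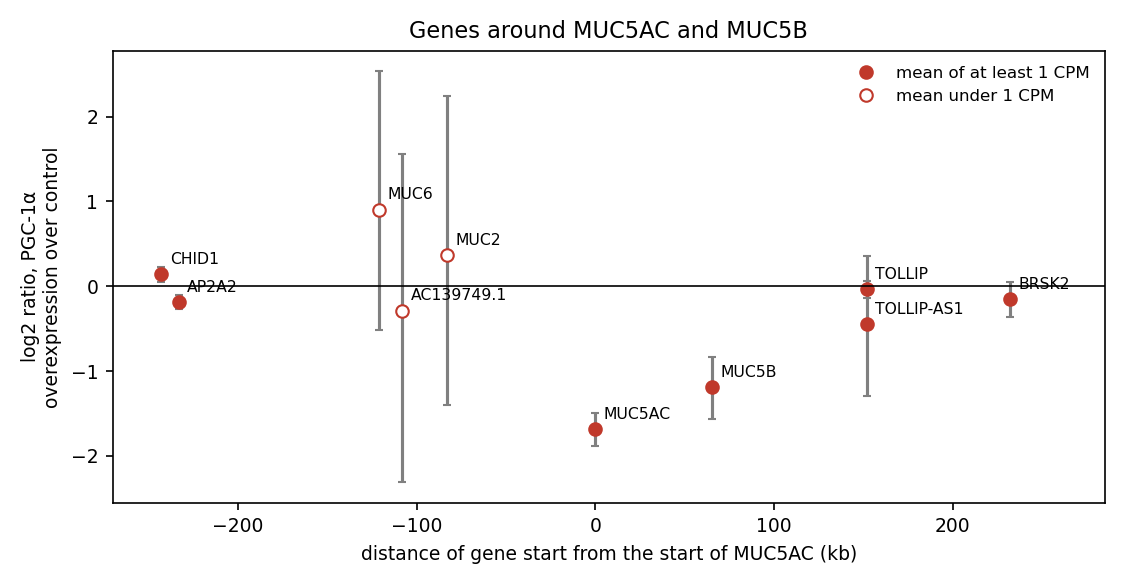
Log2 ratio of the PGC-1α overexpression library over the control (y axis, bars are 95% counting intervals) for 10 genes, by distance of their start from the MUC5AC start in kb (x axis). Filled points have a mean of at least 1 CPM and open points less. MUC5AC at -1.69 and MUC5B at -1.19 lie below 0 with intervals that leave it out, between MUC2 on the left and TOLLIP on the right, whose intervals include 0.

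None of the 4 membrane-bound mucins differed beyond counting error on its own. MUC1 (ENSG00000185499, chromosome 1, 155185824 to 155192916, minus strand, 11 exons), which lines the apical surface and whose tail binds β-catenin, had 64 counts (2.64 CPM) in the PGC-1α library and 52 counts (1.91 CPM) in the control. The interval of its ratio ran from 0.947-fold to 2.04-fold around 1.38-fold. MUC13 (ENSG00000173702, chromosome 3, 124905442 to 124953819, minus strand, 12 exons), best known from the gut epithelium, had 145 counts in the PGC-1α library and 144 in the control, a log2 ratio of 0.18 (-0.16 to 0.52). The interval of MUC13 left out a 1.5-fold difference in either direction, and that of MUC1 left it out downward only.

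MUC16 and MUC20 were below the limit for a measured gene. MUC16 (ENSG00000181143, chromosome 19, 8848844 to 8981342, minus strand, 84 exons), the carrier of the CA125 antigen, had 12 counts in the PGC-1α library and 5 in the control, with a log2 ratio of 1.35 and an interval of -0.17 to 3.29. MUC20 (ENSG00000176945, chromosome 3, 195720882 to 195741123, plus strand, 3 exons), reported to bind the MET receptor, had 20 counts in the PGC-1α library and 18 in the control, a log2 ratio of 0.32 (-0.67 to 1.33). Its pseudogene copy MUC20P1, with which it shares 46.6% of its stretches of 50 bases, had 35 counts in the PGC-1α library and 14 in the control, a log2 ratio of 1.46 (0.56 to 2.50). Summed with this copy, it had 55 counts in the PGC-1α library and 32 in the control, and the log2 ratio was 0.94 (0.30 to 1.63), which passes 1.5-fold. MUC20 also overlaps the noncoding gene LINC00969 on the same strand, which was called higher, with 613 counts in the PGC-1α library and 390 in the control. The part of either in the value of MUC20 was not tested. All 4 membrane-bound mucins together had 241 counts in the PGC-1α library and 219 in the control, a log2 ratio of 0.31 (0.04 to 0.58), under 1.5-fold.

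SPDEF (ENSG00000124664, chromosome 6, 34537802 to 34556333, minus strand, 6 exons) had the lowest ratio of the 10. It had 27 counts (1.12 CPM) in the PGC-1α library and 152 counts (5.57 CPM) in the control. The log2 ratio of -2.30 (-2.97 to -1.72) corresponds to a 4.93-fold lower level, at rank 9 from the lowest of all measured genes. AGR2 (ENSG00000106541, chromosome 7, 16791811 to 16833433, minus strand, 8 exons) had the highest level per length, with 965 counts (39.9 CPM) in the PGC-1α library and 2476 counts (90.8 CPM) in the control. Its log2 ratio was -1.19 (-1.30 to -1.08), a 2.28-fold lower level at rank 104. SPDEF differed more than AGR2, by -1.13 (-1.79 to -0.52) on the log2 scale, whereas the interval of its difference from MUC5AC, -0.63 (-1.31 to 0.001), included 0. AGR2 and MUC5B differed from each other by 0.01 (-0.37 to 0.40).

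The trefoil peptides had the opposite direction or no signal. TFF1 (ENSG00000160182, chromosome 21, 42362282 to 42366594, minus strand, 3 exons), a peptide of gastric mucus and an estrogen-induced gene in breast cancer cells, had 92 counts (3.80 CPM) in the PGC-1α library and 12 counts (0.440 CPM) in the control. Its log2 ratio was 3.06 (2.24 to 4.11), or 8.31-fold higher, at rank 19 from the highest of all measured genes. TFF1 passed the filter only through the library where it is high, which favours a high rank. ESR1, the estrogen receptor gene, had 6 counts in the PGC-1α library and 11 in the control. TFF3 (ENSG00000160180, chromosome 21, 42311667 to 42315651, minus strand, 3 exons), the trefoil peptide of goblet cells, had 0 counts in both. A count of 0 allows up to 3 counts, or 0.124 CPM in the PGC-1α library and 0.110 CPM in the control. TFF2, the remaining trefoil gene, was also at 0 in both. ABCG1, a cholesterol exporter gene and the only measured gene within 100 kb of TFF1, was called higher as well, with 60 counts in the PGC-1α library and 34 in the control and a log2 ratio of 0.98 (0.36 to 1.64).

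**Figure D3:**
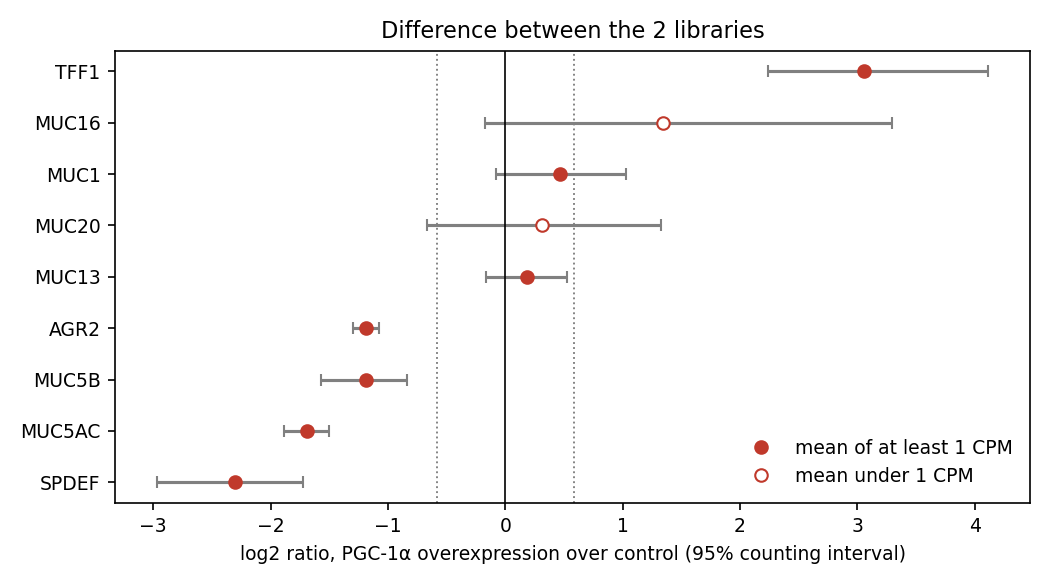
Log2 ratio of the PGC-1α overexpression library over the control for the 9 genes with a count, ordered by ratio, with 95% counting intervals. Filled points have a mean of at least 1 CPM, open points less, and dotted lines mark 1.5-fold. SPDEF, MUC5AC, MUC5B and AGR2 lie below -1, TFF1 lies at 3.06, and the intervals of the 4 membrane-bound mucins include 0.

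Per gene length, the order of the genes differed between the libraries. In the authors' FPKM, which divides counts by gene length and library size, AGR2 stood first, at 13.9 FPKM in the PGC-1α library and 32.1 FPKM in the control. In the PGC-1α library TFF1 followed at 6.85 FPKM, MUC13 at 1.70, MUC5AC at 0.682, SPDEF at 0.579, MUC1 at 0.557, MUC5B at 0.194 and MUC20 at 0.193. In the control SPDEF came after AGR2 at 2.93 FPKM, then MUC5AC at 2.23, MUC13 at 1.52, TFF1 at 0.804, MUC5B at 0.451, MUC1 at 0.407 and MUC20 at 0.156. MUC16 was last of the detected genes in both, at 0.0112 FPKM in the PGC-1α library and 0.00421 in the control. Without replicates, neighbours in this order cannot be set against a spread between samples. AGR2 exceeded MUC5AC 20.4-fold per length in the PGC-1α library and 14.4-fold in the control, and the part of the MUC5AC repeats in this was not tested.

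Promoter windows were searched for every member that had one, among them the lower SPDEF and AGR2 and the uncalled MUC1 and MUC13. RefSeq windows on GRCh38.p14 reach from 250 bases before to 50 after the start and are printed on the strand of the gene. Windows were listed for 5 of the 10 genes, and 1 is shown for each of the 4 measured ones. MUC1 had a second window, from 155192860 to 155193159, which overlaps the printed one and holds the same TATAAA at base -30. Capitals mark matches to 7 motifs searched on both strands: AAGGTCA (ERR core), TGTTTAC (forkhead), CCGGAT (SPDEF-type ETS), TGACTCA (AP-1), ACGTGC (hypoxia element), CCAAT and TATAAA. No match overlaps another.
SPDEF promoter, chr6:34556280-34556579: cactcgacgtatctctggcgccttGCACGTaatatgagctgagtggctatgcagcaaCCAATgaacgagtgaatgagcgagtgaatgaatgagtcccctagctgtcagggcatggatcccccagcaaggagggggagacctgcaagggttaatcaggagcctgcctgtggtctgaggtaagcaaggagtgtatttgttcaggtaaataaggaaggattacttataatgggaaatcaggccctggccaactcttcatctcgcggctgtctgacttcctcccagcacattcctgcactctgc
AGR2 promoter, chr7:16804950-16805249: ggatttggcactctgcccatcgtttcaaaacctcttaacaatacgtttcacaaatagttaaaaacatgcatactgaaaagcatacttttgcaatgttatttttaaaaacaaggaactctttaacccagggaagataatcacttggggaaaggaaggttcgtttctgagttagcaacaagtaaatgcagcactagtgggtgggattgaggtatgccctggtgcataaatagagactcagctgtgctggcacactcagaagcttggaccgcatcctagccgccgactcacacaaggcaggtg
MUC1 promoter, chr1:155192866-155193165: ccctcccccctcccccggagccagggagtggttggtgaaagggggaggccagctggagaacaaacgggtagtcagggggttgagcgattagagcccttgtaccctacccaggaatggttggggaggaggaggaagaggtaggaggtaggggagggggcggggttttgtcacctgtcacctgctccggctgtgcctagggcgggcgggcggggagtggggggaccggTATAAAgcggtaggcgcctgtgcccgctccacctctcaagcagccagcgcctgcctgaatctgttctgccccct
MUC13 promoter, chr3:124934702-124935001: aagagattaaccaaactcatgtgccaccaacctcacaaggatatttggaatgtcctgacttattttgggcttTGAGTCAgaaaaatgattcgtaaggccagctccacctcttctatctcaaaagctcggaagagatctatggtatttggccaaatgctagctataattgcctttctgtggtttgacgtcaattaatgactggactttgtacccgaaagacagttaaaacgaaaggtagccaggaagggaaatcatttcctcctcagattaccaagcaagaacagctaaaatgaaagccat
The SPDEF window held ACGTGC, written GCACGT on this strand, from base -226 and CCAAT from base -193. The AGR2 window held none of the 7. The windows of AGR2 and MUC13 lie inside the coordinates that the files give for these genes, not at their outer start. The printed MUC1 window held TATAAA from base -24 and that of MUC13 held TGACTCA, written TGAGTCA, from base -178. For MUC16, which was not measured, a window from 9065702 to 9066001 held CCAAT from base -89. Another MUC16 window, from 9010360 to 9010659, held AAGGTCA, written TGACCTT, from base -122. Neither is printed, and both lie outside the coordinates given for MUC16 above. Of 35116 RefSeq promoter windows, 6.89% held ACGTGC, 34.6% CCAAT, 11.5% TATAAA, 4.95% TGACTCA, 3.92% AAGGTCA, 3.42% TGTTTAC and 7.12% CCGGAT. Because the AGR2 window held none of the 7, it could share no motif with the SPDEF window, and no conclusion is drawn from this.

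Further neighbours were looked at within 100 kb of each gene. TSPAN13, a tetraspanin gene next to AGR2, was called lower, with 376 counts in the PGC-1α library and 707 in the control, a log2 ratio of -0.74 (-0.92 to -0.56). HEG1, a mucin-like membrane protein gene next to MUC13, was called lower too, with 387 counts in the PGC-1α library and 931 in the control and a log2 ratio of -1.09 (-1.27 to -0.92). Near MUC1, HCN3, a pacemaker channel gene, was called higher, with 513 counts in the PGC-1α library and 203 in the control, while the other 14 measured neighbours, among them TRIM46 and THBS3, were not called. MIR570, which lies inside LINC00969 near MUC20, was called higher, with 65 counts in the PGC-1α library and 37 in the control. Without the members themselves, 26 measured genes lay in these windows, of which 2 were called lower and 4 higher, beside 3.93% lower and 5.29% higher among all measured genes. MIR570 and its host LINC00969 are both among the higher ones. The gene AL713999.1 overlaps MUC1 on the same strand and had 0 counts in both libraries.

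The wider mucous program was described by 8 lists that hold none of the 10 genes. Of 149 genes listed, 90 were measured, 6 of them were called lower, 1 was called higher and 83 were neither. That is 6.67% lower and 1.11% higher, beside 3.93% lower and 5.29% higher among all measured genes. Every called gene of the lists had a mean of 1 to 10 CPM. In that range 8.38% of measured genes were called lower and 10.5% higher, while the 90 genes also include more abundant ones. Ratios under 1 made up 70.0% of the 90, against 51.1% of all measured genes. The median log2 ratio of the 90 genes was -0.11, beside -0.005 for all measured genes. Each measured gene is drawn in the plot of these lists.

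**Figure D4:**
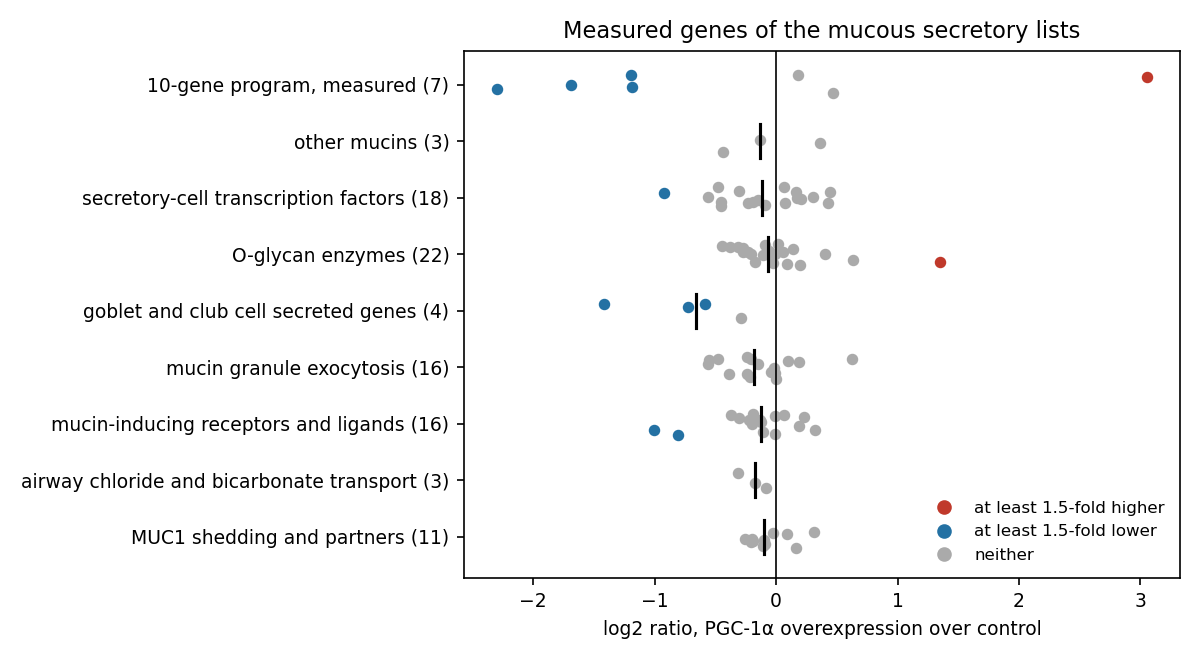
Log2 ratio of the PGC-1α overexpression library over the control (x axis) for measured genes of the 10-gene program and of 8 related lists (number measured in brackets), 1 point per gene. Black bars are list medians and colours mark calls at 1.5-fold. Outside the 10-gene program, FUT2 is the only red point and 6 genes are blue.

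The genes that are secreted by goblet and club cells were mostly not measured, and 3 of the 4 measured were called lower. All 4 had a mean of 1 to 10 CPM, where 8.38% of measured genes were called lower, beside 3.93% of all measured genes. The list fell to 1 lower gene at a mean of at least 5 CPM and to 1 at 2-fold. It fell to 0 with a biological variation of 0.4 assumed for each library. Of 27 genes in this list, 10 were at 0 in both libraries. LCN2, the iron-scavenging lipocalin of the innate defence, had 22 counts in the PGC-1α library and 67 in the control, a log2 ratio of -1.42 (-2.20 to -0.72). At 0.909 CPM in the PGC-1α library and 2.46 CPM in the control, it passed the filter only through the control library, where it is high. FCGBP, a mucus protein that binds MUC2, had 167 counts in the PGC-1α library and 311 in the control, a log2 ratio of -0.72 (-1.005 to -0.45). SLPI, an antiprotease of airway fluid, had 40 counts in the PGC-1α library and 68 in the control, with a ratio on the log2 scale of -0.59 (-1.19 to -0.01), just past 1.5-fold. CEACAM6 stood at -0.29 and was not called. The AGR2 paralogue AGR3 and the club cell genes SCGB1A1 and SCGB3A2 were at 0 in both libraries.

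Among 23 transcription factors of secretory cells, 18 were measured, 1 was called lower, none higher, and the median log2 ratio was -0.12. That is 5.56% lower, near the 3.93% among all measured genes. SOX2, a factor of airway progenitors, had 83 counts in the PGC-1α library and 178 in the control, a log2 ratio of -0.92 (-1.32 to -0.54). FOXA2, which in mouse lung restrains goblet cell differentiation and was picked here after its value was seen, stood just under 1.5-fold at -0.56 (-0.69 to -0.43). Of 28 enzymes that build O-linked glycans, 22 were measured, 1 was called higher, none lower, and the median was -0.06. That is 4.55% higher, near the 5.29% among all measured genes. The gene called higher, FUT2, the fucosyltransferase that sets ABH secretor status, had 80 counts in the PGC-1α library and 35 in the control. Its log2 ratio was 1.35 (0.77 to 1.98). Of 17 other mucin and mucin-like genes, 3 were measured and none was called, with the sialomucin CD164 at -0.13 and MCAM at -0.44. HEG1, the mucin-like gene next to MUC13, is not in this list and was called lower, at -1.09.

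Of 18 genes of granule exocytosis 16 were measured and none was called, with a median log2 ratio of -0.18. VAMP3, a vesicle fusion protein, stood at -0.01, and MARCKS, which links granules to the cytoskeleton, at -0.39 (-0.49 to -0.28). The granule GTPase genes RAB3D and RAB27B, picked after their values were seen, were just under 1.5-fold at -0.56 and -0.55. Of 19 receptors and ligands that induce mucins, 16 were measured, 2 were called lower and none higher. That is 12.5% lower, beside 3.93% among all measured genes and 8.38% at a mean of 1 to 10 CPM, where both called genes lie. The list fell to 1 lower gene at 2-fold and to 0 with the assumed biological variation of 0.4. The median was -0.13. TGFA, a ligand of the EGF receptor, had 115 counts in the PGC-1α library and 227 in the control, a log2 ratio of -0.81 (-1.15 to -0.48). IL6R, the interleukin-6 receptor, had 157 counts in the PGC-1α library and 355 in the control, with a log2 ratio of -1.003 (-1.29 to -0.73). For airway chloride and bicarbonate transport, 3 of 9 genes were measured and none was called, with SLC4A2 at -0.17 and SLC12A2 at -0.31. All 11 genes of MUC1 shedding and of its binding partners were measured and none was called, with SRC at -0.21, GRB2 at -0.10 and a median of -0.10.

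Of 6 epithelial markers, all measured, 2 were called lower and none higher, beside 3.93% lower and 5.29% higher among all measured genes. The median log2 ratio of the 6 was -0.04. KRT19, a keratin of simple epithelia, had 722 counts in the PGC-1α library and 1786 in the control, a log2 ratio of -1.13 (-1.26 to -1.01), and CDH1, encoding E-cadherin, had 600 counts in the PGC-1α library and 1308 in the control, a log2 ratio of -0.95 (-1.09 to -0.81). KRT8 at 0.01 and KRT18 at -0.09 were close to 0, and KRT7 at 0.33 and EPCAM at 0.58 were above it without a call. Any link between the values of KRT19 and CDH1 and those of the mucin genes was not tested.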

How the data were processed

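RNA-seq gene tables of 1 PGC-1α overexpression library and 1 control library of A549 cells were used. The authors deposited raw counts per Ensembl gene and, separately, FPKM values. Per the submitters' processing notes the tools were Cuffdiff 2.1.1, Cufflinks 2.1.1, TopHat2 2.0.9 and Bowtie2 2.0.6, with no role stated. The build, the counting program and its strand setting: each is not given in the sources used here. The start and the end of all 10 genes, and of 97.6% of the genes in both, equal GENCODE 29 on GRCh38. The deposited FPKM were a rescaling of the same counts: all 25858 and 25852 values above 0 in the PGC-1α and control tables gave 1 library size each, within a relative tolerance of 1e-06.

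Counts were scaled to TMM-normalised library sizes (edgeR 4.0.16, R 4.3.3). For log2 ratios (PGC-1α over control) 0.5 counts were added, scaled to library size. Intervals (95%, Clopper-Pearson split of both counts) and the limit of 3 counts for a count of 0 hold counting error alone. Without molecular identifiers reads are not independent molecules, so even this error may be understated. Differences of ratios between genes have conditional exact intervals. With a single library in each group no test across genes could be fitted, and no p-value is given. Calls needed 1.5-fold and a mean of at least 1 CPM. The calculation was tested on simulated counts with counting error alone, which cannot check the calls against differences between cultures. Repeats used stretches of 50 bases of GENCODE 29 transcripts.

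The 10 genes, the lists and the motifs were chosen with earlier results of these data known. All members are named. In each list all called genes are named, or the 2 most expressed per length where none was called, and exceptions are marked. Of the listed genes, 17 overlap a more abundant gene, so their values are uncertain. Named among these are ESR1, MCAM, NKX2-1, RAB3D and SCGB1A1. Alternatives were DESeq2 (version 1.42.0) size factors, library totals, upper-quartile factors, other filters, added counts and folds, FPKM with pseudocounts, an assumed variation, summed copies and leaving out overlapped genes. Protein sequences were not used here.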

Additional observations from a re-analysis of the deposited data

How the results depend on the processing

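Of 72 log2 ratios of members recomputed under alternatives, 68 lay inside the counting interval of the reported value and none changed sign. The other 4 came with FPKM and a pseudocount of 1, which shrinks low genes by construction: MUC5AC stood at -0.94, MUC5B at -0.28 (no longer called), SPDEF at -1.32 and TFF1 at 2.12. MUC1 ranged from 0.15 to 0.47. Part of the 72 could hardly differ by construction. The assumed variation alters no ratio, summing copies alters only MUC20, and another library scaling shifts all genes almost equally. The call of SPDEF, MUC5AC and TFF1 held under every alternative except, for SPDEF and TFF1, a mean of at least 5 CPM, which drops both and leaves 3 members lower and 0 higher. With a biological variation of 0.4 (coefficient of variation) assumed for each library, 2 members were lower, SPDEF and MUC5AC, without MUC5B and AGR2, and in the lists 0 genes were lower and 0 higher. Summing MUC20 with MUC20P1 gave 2 members higher. Over the 8 lists, against 6 lower and 1 higher, a mean of at least 5 CPM gave 3 and 0, a threshold of 2-fold 2 lower, FPKM with a pseudocount of 1 gave 3 and 0, and no filter gave 5 higher. Scaling by size factors, totals or upper quartiles changed no count of the members or of all lists. No paired analysis was possible because each group holds 1 library, and no library could be left out. Low counts limit MUC1, MUC16, MUC20, TFF1 and SPDEF, which had 27 counts in the PGC-1α library. Differences between cultures are not covered by any interval.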

Other observations

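Several genes of the lists that lie under a mean of 1 CPM would have been called without that filter, and most of them were higher in the PGC-1α library. CEACAM5, a surface glycoprotein known as carcinoembryonic antigen, had 26 counts in the PGC-1α library and 4 in the control, a log2 ratio of 2.72 (1.35 to 4.85), while its relative CEACAM6 had 26 in the PGC-1α library and 36 in the control. ANO1, a calcium-activated chloride channel of secretory epithelia, had 26 counts in the PGC-1α library and 6 in the control, a log2 ratio of 2.19 (0.97 to 3.86). The membrane-bound mucin MUC4 had 16 counts in the PGC-1α library and 5 in the control, a log2 ratio of 1.75 (0.34 to 3.65), and the mucin-like gene OVGP1 had 24 in the PGC-1α library and 12 in the control, a log2 ratio of 1.14 (0.12 to 2.31). The endotoxin receptor gene TLR4 had 0 counts in the PGC-1α library and 8 in the control. These genes were picked after their values were seen, and a gene this low passes the call only when its counts differ widely.

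TPPP3, a tubulin-binding protein gene listed here as a ciliated cell marker, had 115 counts in the PGC-1α library and 43 in the control, a log2 ratio of 1.58 (1.07 to 2.13). The ciliated cell factor FOXJ1 had 10 counts in the PGC-1α library and 7 in the control, and DNAH5 had 55 in the PGC-1α library and 54 in the control. CD14, listed as an immune marker, had 82 counts in the PGC-1α library and 164 in the control, a log2 ratio of -0.82 (-1.23 to -0.44), while PTPRC had 2 in the PGC-1α library and 0 in the control.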
